A study of Drosophila melanogaster with 12 samples.

Results

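The transcriptome of control eye-antennal discs of Drosophila melanogaster was described by level, from the 6 arrays of 12 that carried no winged eye (wge) expression driven by Gal4. They comprise 3 arrays of UAS-wge larvae, which have the transgene and no driver, and 3 arrays of ey-Gal4 larvae, which have the eyeless-promoter driver and no transgene. The other 6 arrays hold 3 of ey>wge larvae, with driver and transgene together, and 3 of ey>wge larvae that also carried Su(var)3-9[1] over Su(var)3-9[2], called the allele pair here. Each array was hybridised with biotin-labelled RNA amplified from 100 ng of total RNA of 30 disc pairs, dissected at the wandering stage of the last larval instar, and each genotype has 3 biological replicates. Both controls are transgenic stocks, so a level found in either is that of its line, and no array without a transgene was analysed here. The arrays' titles say eye disc, whereas their tissue field names the whole eye-antennal disc.

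The eye-antennal disc is a folded epithelial sac in the larval head that forms the adult eye, antenna, ocelli, palps and most of the head capsule. At the wandering stage the morphogenetic furrow is crossing the eye field: cells ahead of it still divide under the retinal determination genes, and cells behind it join ommatidial clusters and become photoreceptors, cone cells and pigment cells. The antennal field is patterned into nested rings that become its segments, and a thin peripodial epithelium covers the disc.

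The deposited value is a MAS5 signal, a brightness per probe set on a linear scale that the authors had already brought to a common level. For each named gene the brightest probe set with a single symbol was taken, its mean over the 6 control arrays was computed, and the 11982 genes were ranked, with rank 1 the brightest. A signal depends on how well the probes bind as well as on the amount of RNA, and it is not a level per length. The ranks therefore order brightness on this array and not copies per cell. A gene counted as above background where, on all 6 arrays, it exceeded that array's 90th percentile of 58 named genes of ovary, testis, accessory gland and adult chemosensory neurons. These thresholds lay between 38.4 and 48.2, and the list's own medians between 9.15 and 17.1. On these terms 6485 genes, 54.1% of those named, were above background. Within the list itself 56 genes were not, and the odorant receptor gene Or43b (143 ± 10.6, SD, n = 6) and the accessory gland gene Acp95EF (93 ± 13.5) were.

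Signal was concentrated in few genes. Of the summed signal of all named genes, the 10 brightest held 4.10% ± 0.19, the 50 brightest 15.1% ± 0.60 and the 1000 brightest 60.4% ± 0.76 (SD, n = 6 arrays). Mean signals reached 10000 in 135 genes, 1000 in 2651 and 100 in 6299, and the median gene read 141. The share of the 50 brightest was highest on ey-Gal4 replicate 2, at 16.2%, and lowest on ey-Gal4 replicate 1, at 14.5%. The coefficient of variation over the 6 arrays had a median of 7.37% among the 50 brightest genes, 14.4% among genes above background and 70.9% among the rest. The curve of signal against rank shows transcription factor genes from rank 48 down into the background.

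**Figure D1:**
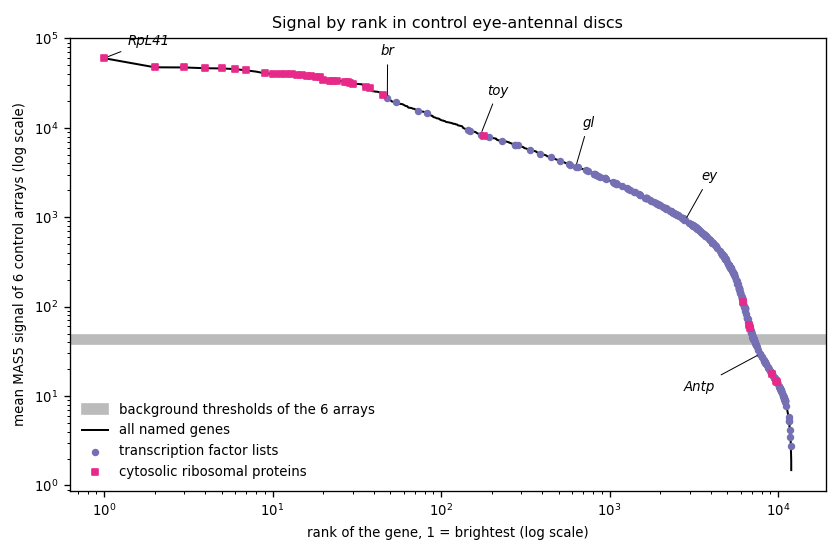
Mean MAS5 signal of the 6 control arrays (vertical, log scale) against the rank of each named gene (horizontal, log scale), with transcription factor genes as circles, cytosolic ribosomal protein genes as squares and the range of the 6 background thresholds, 38.4 to 48.2, as a grey band. 29 ribosomal protein genes sit among the first 50 ranks, and 31 transcription factor genes lie among the first 1000.

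The control arrays ordered the genes alike. Over all named genes the Spearman correlation was 0.939 to 0.944 for the 6 pairs of arrays of the same genotype and 0.929 to 0.938 for the 9 pairs of different genotypes, a description across genes that share their probes. Any pair of same-genotype arrays had 46 to 49 of their 50 brightest genes in common, and any pair of different genotypes 45 to 48. Of the 50 brightest genes by the mean, 44 were among the 50 brightest on every control array, and the lowest rank any of them took on an array was 67. In the UAS-wge mean 48 of them were among the 50 brightest, and in the ey-Gal4 mean 49.

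The brightest named probe sets were those of the translation machinery, which every growing cell uses. Of 36 named genes for cytosolic ribosomal proteins, 22 were among the 25 brightest genes and 29 among the 50 brightest, 31 were above background, and together they held 9.94% ± 0.45 of the summed signal. RpL41, a small protein of the large ribosomal subunit, ranked first among the named genes on each array. On ey-Gal4 replicate 3 a probe set outside the ranking was brighter, at 60895. RpL41 read 56156, 58851 and 59473 on the UAS-wge arrays and 57884, 69676 and 58971 on the ey-Gal4 arrays. After it came RpS28b (47598 ± 3367), RpS27A (47397 ± 4082), whose product is made as a fusion to ubiquitin, RpL15 (46449.5 ± 2956) and RpS29 (46244 ± 3323). The acidic stalk proteins of the large subunit were close behind: RpLP1 averaged 45409 ± 2409, RpLP2 43959.6 ± 3054 and RpLP0 40042 ± 2248. Next to the ribosome stood factors that work on it, with eEF5 at rank 32, the helicase gene eIF4A at 34, Rack1, a scaffold on the small subunit, at 35, Nacalpha, which binds nascent chains, at 42, and the poly(A)-binding protein gene pAbp at 43. Ribosomal proteins of the mitochondrion ranked lower: all 69 named genes were above background, the brightest ranked 949 and their median rank was 2824.

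The plot of the 25 brightest genes shows how far the arrays of these genes spread. Outside that plot, RpL27, at rank 30, was the one ribosomal protein gene called between the controls, 1 of 35 tested, against a background of 4.99% of all 13817 probe sets tested. It read 25617, 25191 and 20666 on the UAS-wge arrays and 38729.8, 41500.3 and 34719.6 on the ey-Gal4 arrays, which do not overlap, a log2 difference of -0.69 ± 0.17 (SE; limma adjusted p = 0.0233). The call was lost in 7 of 22 alternatives, among them 4 that each left out 1 control array, and its adjusted p ranged up to 0.156.

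**Figure D2:**
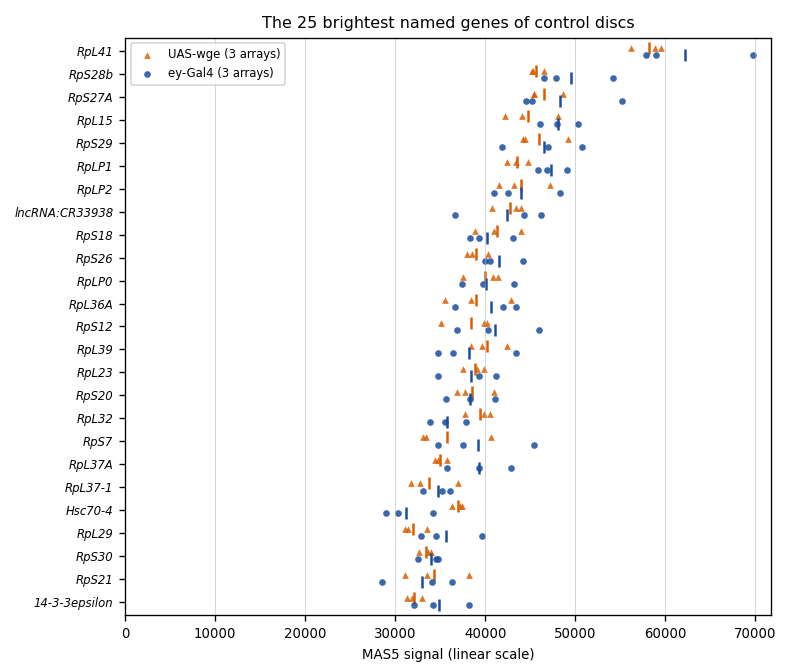
MAS5 signal (linear scale) of the 25 brightest named genes on each control array, UAS-wge as triangles and ey-Gal4 as circles, with the genotype's mean as a vertical tick. RpL41 leads with 56156 to 69676, and the only 3 genes outside the ribosome are lncRNA:CR33938, Hsc70-4 and 14-3-3epsilon.

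Outside the ribosome, the brightest genes included some for protein folding, the cytoskeleton and metabolism. The long non-coding RNA gene lncRNA:CR33938 had rank 8, with 40787, 43472 and 43947 on the UAS-wge arrays and 36649, 46156 and 44351 on the ey-Gal4 arrays. Hsc70-4, the constitutive cytosolic Hsp70 chaperone, had rank 21, with 37393, 37159 and 36350.4 in UAS-wge and 28986, 34202 and 30354 in ey-Gal4. The arrays of the controls do not overlap for Hsc70-4, and limma did not call the difference of 0.25 ± 0.10 (adjusted p = 0.264). The adaptor gene 14-3-3epsilon (33450.3 ± 2519.9), the cyclophilin genes CG2852 (33210.4 ± 3510.0) and Cyp1 (25745 ± 2446), the cofilin gene tsr (31064 ± 3148), Sumo (30805 ± 1708), the small heat shock gene Hsp27 (27919 ± 5587), betaTub56D (25635 ± 1903) and Tctp (25395 ± 1299), a growth regulator, were also among the 15 brightest outside the ribosome. Further down, the ADP/ATP carrier gene sesB had rank 46, and Ance, a peptidase gene related to mammalian angiotensin-converting enzyme, had rank 50. By class, 2 of 44 translation factor genes, 2 of 23 chaperone genes and 3 of 16 genes for actin, tubulin and their regulators were among the 50 brightest. The best rank of 68 respiratory chain and ATP synthase genes was 75, and that of 40 proteasome subunit genes 141.

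Differences between the controls were tested for all probe sets together. limma with Benjamini-Hochberg adjustment called 690 of 13817 probe sets tested, the background already given, with 2.31% higher in UAS-wge and 2.69% lower. Among the 100 brightest genes 2 were higher in UAS-wge, eEF1gamma (0.64 ± 0.12 on the log2 scale) and jim, and 2 were lower, RpL27 and GstD1 (-0.63 ± 0.11). These 4 of 100 lie close to the background, and of them eEF1gamma and GstD1 kept their calls without each array in turn. The count of 690 was 515, 457 and 490 without UAS-wge replicates 1, 2 and 3 in turn. It was 526, 474 and 461 without ey-Gal4 replicates 1, 2 and 3. UAS-wge replicate 3, which stands apart in ring gland genes, described with the markers of other tissues, thus lies within the range of the others. The median log2 difference was -0.03 over the 100 brightest and 0.01 over all probe sets tested.

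Transcription factor genes lay mostly at middle levels. The lists hold 324 genes, of which 286 had a named probe set. Of these, 187 (65.4%, against 54.1% of all named genes) were above background, 77 reached a mean signal of 1000, 31 ranked among the first 1000 genes and 4 among the first 100. Their median rank was 5198 and their median signal 275, against a median of 141 over all named genes. Shares varied over the families, which was not tested. Of 55 named genes for C2H2 zinc finger proteins 44 were above background, as were 30 of 44 basic helix-loop-helix genes, 12 of 15 bZIP genes, 13 of 16 genes of the LIM, POU, cut and Prospero homeobox classes and 12 of 20 nuclear receptor genes. Only 1 of 10 named Hox and related homeobox genes and 2 of 6 ETS genes were.

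The 4 brightest transcription factor genes have known roles in many tissues. br, the Broad-Complex gene through which ecdysone starts metamorphosis, ranked 48, with 21714, 22234 and 19069 on the UAS-wge arrays and 22466, 24193 and 18261 on the ey-Gal4 arrays. The UAS-wge values of br lie within the range of the ey-Gal4 values. All are of the brightest of its 5 probe sets, and the second averaged 2445. crc, the fly ATF4 of the stress and amino acid response, ranked 54 at 19252 ± 2009 (SD, n = 6), and emc, a helix-loop-helix protein that blocks proneural factors, ranked 83 at 14734 ± 1818. The zinc finger gene jim, at rank 73, read 16949, 18075 and 18513 in UAS-wge and 14057, 13045 and 12200.4 in ey-Gal4. Every UAS-wge array lay above every ey-Gal4 array for jim, a log2 difference of 0.45 ± 0.11 (limma adjusted p = 0.0171). Across 22 alternatives the adjusted p of jim ranged up to 0.121, and the call was lost without any of 4 single control arrays.

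After a gap came regulators of eye, antenna and signalling, here with their ranks. The zinc finger gene noc, at 145, had the lowest coefficient of variation of the 25 brightest, 2.77%, at 9469.7 ± 262, and ci, the Hedgehog effector, stood at 149 with 9323 ± 737. The Pax6 gene toy stood at 172 and the epithelial regulator grh at 193. hry, the hairy repressor of proneural genes, stood at 231 and differed between the controls: it read 8392, 9819 and 8334 in UAS-wge and 6332, 5281 and 4745 in ey-Gal4, with no overlap and a log2 difference of 0.70 ± 0.14 (limma adjusted p = 0.00389). 4 genes of the Enhancer of split complex, which Notch signalling switches on, were among the 25 brightest: E(spl)mdelta-HLH at 6512 ± 357, E(spl)mbeta-HLH at 5684 ± 1297, E(spl)m3-HLH at 4286 ± 401 and E(spl)m7-HLH at 3285 ± 482. Signalling effectors among them were aop (6504 ± 689), the ETS repressor of the EGFR pathway, shn (4667 ± 1075), a partner of Dpp-activated Smads, Stat92E (3046 ± 424) of the JAK/STAT pathway and Smox (3034 ± 333), the Smad of activin signalling. FoxK (3915 ± 822), zld (3884 ± 778), known as the pioneer factor of the early embryo, jumu (3610.2 ± 694) and Hsf (3357 ± 379), the heat shock factor, were also among the 25. Leading the remaining families were Hr39 among nuclear receptors (2915 ± 301), bi, the optomotor-blind T-box gene (1910.0 ± 313), the HMG box gene cic (1812 ± 179.9), a repressor that EGFR signalling relieves, so (1416 ± 107) in its homeobox class, Dll among NK-type homeobox genes, Lim1 among the LIM class and Dfd among Hox genes.

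**Figure D3:**
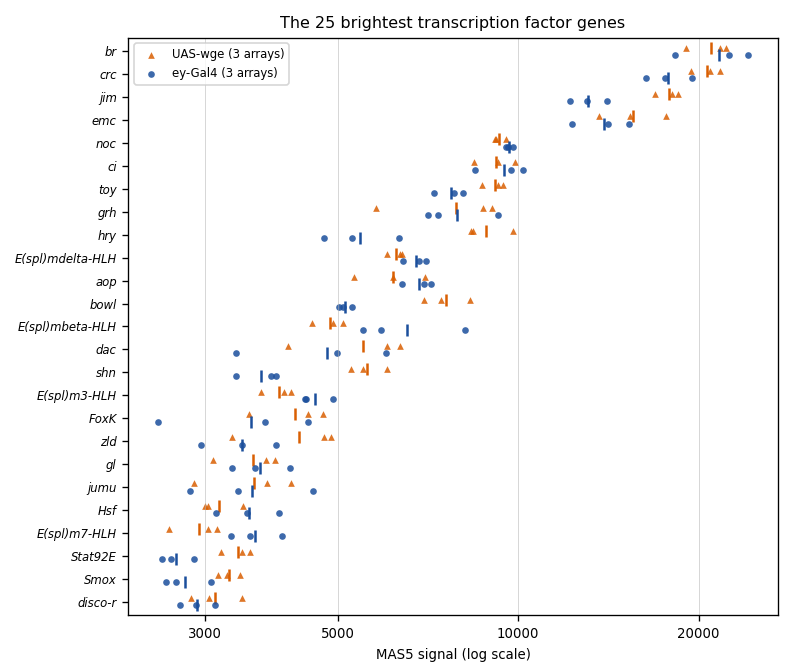
MAS5 signal (log scale) of the 25 brightest transcription factor genes on each control array, UAS-wge as triangles and ey-Gal4 as circles, with the genotype's mean as a vertical tick. jim, hry and bowl are higher on all 3 UAS-wge arrays and were called, and br spans 18261 to 24193.

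Of 248 transcription factor genes tested, limma called 13 between the controls, 5.24% against the background of 4.99%. Higher in UAS-wge were hry, sima, gce, fd96Cb, srp, bowl, btd and jim, and lower were Max, GATAd, klu, odd and drm. The calls of hry, srp, btd, odd and drm were kept without each array in turn, and each of the other 8 was lost without at least 1 control array, those of klu (-0.75 ± 0.20), GATAd (-0.53 ± 0.14) and bowl without any of the 6. srp also stands in the hemocyte list. gce (35 ± 26.4), a bHLH-PAS gene of the juvenile hormone response, was not above background. Over the transcription factor genes above background the coefficient of variation had a median of 17.5%.

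The retinal determination genes, the network that commits cells to eye fate, were well above background. Of 11 named genes 10 passed, against 54.1% of all named genes, and 8 reached a signal of 1000. In bulk discs, fewer cells of a type and less RNA per cell cannot be told apart, here and in all lists that follow. toy, which acts at the top of the network, was the brightest, with 9444, 9242 and 8718 in UAS-wge and 8088, 7241 and 7814 in ey-Gal4. The groups do not overlap for toy, and the difference of 0.24 ± 0.12 was not called (limma adjusted p = 0.373). Its target ey, the other Pax6 gene and the source of the driver's promoter, read 1051, 975 and 1101 in UAS-wge and 811, 789.5 and 823 in ey-Gal4, rank 2811. Here too all UAS-wge arrays were higher, without a call (0.36 ± 0.20, adjusted p = 0.463).

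Downstream of Pax6 stand a nuclear cofactor and a coactivator with its DNA-binding partner. dac, a nuclear cofactor, read 4135, 6033 and 6345 in UAS-wge and 6016, 3382 and 4979 in ey-Gal4. eya, a phosphatase and coactivator, read 3453, 3692 and 3269.5 in UAS-wge and 4172, 2854 and 3719 in ey-Gal4, and its DNA-binding partner so read 1393, 1555 and 1421 in UAS-wge and 1271, 1339 and 1517 in ey-Gal4. For dac, eya and so the arrays of the genotypes overlap. danr (2719.6 ± 192), dan (1486 ± 132), tsh (1259.7 ± 127) and Optix (1036 ± 315) followed, then eyg (212 ± 46.5), the Pax gene of eye growth. Only tio (58 ± 34.4), a zinc finger gene related to tsh, was not above background, since it exceeded the threshold on 3 arrays. None of the 11 was called between the controls. wge itself, the gene whose expression the study drove, had rank 3006 on these arrays, none of which has driver and transgene together. It read 801, 931 and 827 in UAS-wge and 776, 810.0 and 951 in ey-Gal4, overlapping ranges.

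Against 54.1% of all named genes, genes of the morphogenetic furrow and of proneural choice were above background in 9 of 10 named cases. Beyond emc and hry, which hold neural fate back, these were Brd (2888 ± 322), an inhibitor of Delta endocytosis, da (2722 ± 291), the partner of proneural proteins, and ato, the proneural gene of the founder photoreceptor R8. ato read 1952, 2149 and 1657 in UAS-wge and 2267, 2157 and 2245 in ey-Gal4. Every ey-Gal4 array was the higher for ato, without a call (-0.22 ± 0.15, limma adjusted p = 0.607). Both signals that drive the furrow were there, dpp at 1339 ± 452 and hh at 1173 ± 172, and dpp varied widely, with 1191, 2090.1 and 953 in UAS-wge and 1678, 973 and 1147 in ey-Gal4. sens (559 ± 78.7), which secures the R8 choice, and ro (294 ± 69.6), which refines it, also passed. The Hedgehog receptor gene ptc was the exception: its named probe set read 3.3, 40 and 6.3 in UAS-wge and 56.4, 50.1 and 12.8 in ey-Gal4 and exceeded the threshold on 2 arrays. hry was the one member called of 10 tested, against 4.99% of all probe sets tested. Dl, N, sca and rho had no named probe set.

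Behind the furrow, genes of photoreceptor specification were above background in 18 of 19 named cases, against 54.1% of all named genes. The EGFR ligand gene spi (6990.1 ± 623) and aop led, and gl, a zinc finger gene needed for all photoreceptors, had rank 630 with 3091, 3932 and 3797 in UAS-wge and 3324, 3633 and 4165 in ey-Gal4. Next were the ubiquitin ligase gene sina (2101 ± 432) and phyl (1638 ± 205), which act together in R7 choice, the homeobox gene B-H2 (1539 ± 154) and the EGFR antagonist gene aos (1422 ± 262). The neuronal RNA-binding protein gene elav averaged 1169.8 ± 304 and the receptor gene sev, which receives the R7 signal, 279 ± 53.6. Its ligand gene boss (66.6 ± 21.1) exceeded the threshold on 5 of 6 arrays. Of 19 genes tested 1 was called between the controls, near the background of 4.99% of all probe sets tested. It was chp, a photoreceptor adhesion gene, with 546, 399 and 451 in UAS-wge and 771, 1087 and 1023 in ey-Gal4. All were lower in UAS-wge (log2 difference -1.02 ± 0.22, limma adjusted p = 0.00762). Without UAS-wge replicate 2 the adjusted p of chp was 0.0551, and without ey-Gal4 replicate 2 it was 0.0569, the highest of 22 alternatives.

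Genes of later eye cells passed in part, where 54.1% of all named genes were above background. In the list of cone and interommatidial cells 6 of 8 were above background, led by the adhesion gene rst (8500.4 ± 623, rank 170), nkd (2159.6 ± 353), a feedback inhibitor of Wingless, and hbs (1949 ± 172), a partner of rst. dpn (805 ± 108), kirre (699.6 ± 133) and ct (518 ± 55.9) also passed, and sv (46.1 ± 24.8), the Pax2 gene of cone cells, and sns (32.9 ± 16.1) were not above background. In adult phototransduction 4 of 9 named genes passed: Galphaq (1156 ± 303), the G protein subunit used in many cells, inaC (401 ± 95.5), rdgA (217 ± 29.4) and rdgB (147 ± 29.1). The channel genes trpl (31.7 ± 20.8) and trp (3.58 ± 0.646), the scaffold gene inaD (10.1 ± 5.66) and the arrestin genes Arr1 and Arr2 (19.6 ± 24.3) were not above background on all arrays. Arr1 was called lower in UAS-wge, with 30.3, 4 and 19 in UAS-wge and 199.9, 97.1 and 238 in ey-Gal4 (limma adjusted p = 8.12e-04). All 3 UAS-wge values of Arr1 lie under their arrays' thresholds, and with those thresholds in their place Arr1 was at least 3.74-fold lower in UAS-wge. The opsin genes of the list had no named probe set.

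Both sides of the dorsal-ventral axis were represented, though L, the ventral gene below, was above background on 1 of its 4 probe sets. All 7 named genes of the list passed: fng (6666 ± 369), the glycosyltransferase that sets the Notch boundary, L (2259 ± 427), active ventrally, the dorsal homeobox genes caup (974 ± 78.2), mirr (510.4 ± 101) and ara (292 ± 24.3), the dorsal GATA gene pnr (747 ± 144) and the JAK/STAT ligand gene upd1 (62.8 ± 17.4). Of all named genes 54.1% passed, and none of these 7 was called between the controls.

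Antennal and distal appendage genes were read beside the eye genes, as the tissue field of the labels implies. Of 22 named genes 19 were above background, against 54.1% of all named genes, and 13 of the 22 reached 1000. Among those above background, dan, danr, B-H1, B-H2, salm and ct also stand in the eye lists, so these counts are not of antennal signal alone. disco-r (3017 ± 262) and bab2 (2847 ± 614), zinc finger and BTB genes of distal segments, were the brightest, followed by danr, which the eye list shares, fj (2105 ± 156), a Golgi kinase gene, esg (1928 ± 241) and Dll. disco-r was above background on 1 of its 2 probe sets, and the other averaged 26.9. Dll, a homeobox gene needed for the distal antenna, read 1634, 1993 and 1866 in UAS-wge and 1922, 1481 and 1809 in ey-Gal4, overlapping. ss, the bHLH-PAS gene that selects antenna over leg, averaged 1129.8 ± 206, and Lim1, of the most distal segment, 1096 ± 161. disco (1651 ± 211), al (358 ± 58.6), rn (127 ± 38), ap (96.7 ± 37.2) and Sp1 (73.8 ± 17) also passed. bab1 (90.3 ± 27.5) and C15 (52.2 ± 10.4) exceeded the threshold on 5 arrays each, and amos (22.6 ± 16.5), a proneural gene of olfactory sensilla that acts later, on 0 of 6.

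btd, a zinc finger gene of head and limb primordia, was the one antennal gene called between the controls. That is 1 of 22 tested, near the background of 4.99% of all probe sets tested. btd read 430.3, 365 and 492 on the UAS-wge arrays and 196, 121 and 169 on the ey-Gal4 arrays. All UAS-wge values were higher, by 1.33 ± 0.22 on the log2 scale (limma adjusted p = 7.58e-04).

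All 10 named peripodial and margin genes were above background, against 54.1% of all named genes, and 3 of them were called between the controls, against 4.99% of all probe sets tested. Members of the odd-skipped family were called in both directions. bowl, at rank 285, read 8307, 7438 and 6963 in UAS-wge and 5111, 5018 and 5272 in ey-Gal4, a log2 difference of 0.56 ± 0.15 (limma adjusted p = 0.0431). drm, which frees Bowl from its inhibitor Lines, read 2041, 1480.2 and 1476 in UAS-wge and 2968, 2937 and 3425 in ey-Gal4, a log2 difference of -0.91 ± 0.13 (adjusted p = 2.43e-04). odd read 364, 339 and 459 in UAS-wge and 808, 733 and 708 in ey-Gal4, a log2 difference of -0.93 ± 0.16 (adjusted p = 9.14e-04). bowl was higher and drm and odd were lower on every UAS-wge array. The call of bowl was lost in 12 of 22 alternatives, among them each that left out 1 control array (adjusted p up to 0.192), while those of drm and odd held in all 22. sob (681 ± 150.0), the remaining member of the family, and lin (495 ± 81.8), the gene for Lines, were not called.

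The JNK pathway genes msn (1412 ± 220.4), a kinase, and puc (1261 ± 102), the phosphatase that JNK induces, exceeded 1000, as did hh. pnr read 942, 786 and 857 in UAS-wge and 545, 659 and 695 in ey-Gal4, without overlap and without a call (0.44 ± 0.15, adjusted p = 0.123), and the GATA gene grn averaged 125 ± 21.2. The plot of retinal, furrow, antennal and peripodial genes shows these levels side by side.

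**Figure D4:**
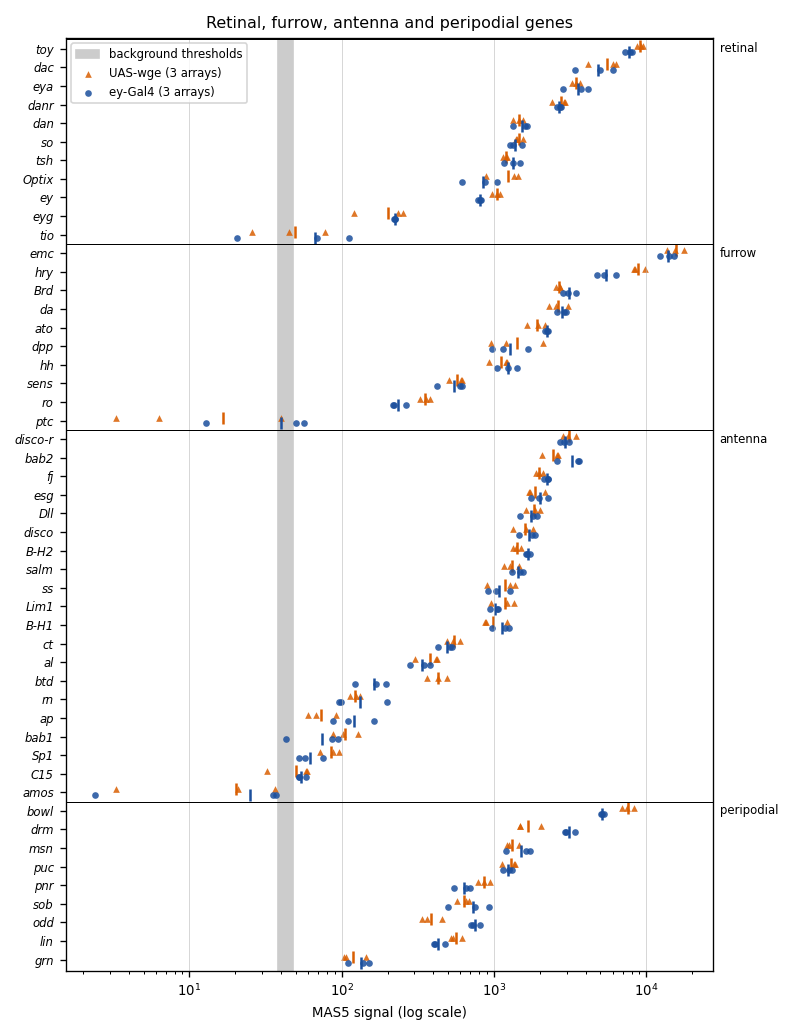
MAS5 signal (log scale) of every named gene of the retinal, furrow, antennal and peripodial lists on each control array, each gene drawn once under the first list that holds it, UAS-wge as triangles and ey-Gal4 as circles, the genotype's mean as a tick and the background thresholds (38.4 to 48.2) as a grey band. The 5 genes called, hry, btd, bowl, drm and odd, separate by genotype, and tio, ptc, C15, bab1 and amos reach into or below the band.

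Over the eye, antennal and peripodial lists together, without phototransduction, 71 of 79 named genes were above background (54.1% of all named genes were), 43 had a signal of at least 1000, and the median rank was 2386. limma called 3 of the 79 higher in UAS-wge (hry, btd, bowl) and 3 lower (chp, drm, odd), against backgrounds of 2.31% and 2.69%. Of the head capsule and ocelli list all 8 named genes passed, with ems (1655 ± 85.1), a head gap gene, oc (689.7 ± 129), the orthodenticle gene of the ocelli, and the posterior compartment genes en (653 ± 71.5) and inv (231 ± 63.8) beside toy and hh. btd and tup (273 ± 46.5) made up the 8.

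Selectors of other body regions were above background in part. Of the head Hox genes Dfd, which specifies maxillary structures, was above background, with 1049, 726 and 866 in UAS-wge and 612, 690.4 and 648 in ey-Gal4, without overlap and without a call (adjusted p = 0.174). Scr (74.6 ± 53.7) exceeded the threshold on 3 arrays, and pb averaged 27 ± 17.6. Of the wing, thoracic and abdominal selectors, nub (162 ± 53.7) and ap (96.7 ± 37.2) passed, and vg (36.3 ± 13), the wing selector, and Antp (29.6 ± 16.6), the thoracic Hox gene, did not. Ubx, abd-A and Abd-B had no named probe set.

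Markers of other larval tissues were read on the same arrays. Hemocyte genes, which mark blood cells that adhere to discs, were above background in 11 of 12 cases, against 54.1% of all named genes. Of the 12 hemocyte genes, 9 were higher in UAS-wge against the background of 2.31%. Their summed signal was 20167, 30976 and 24092 on the UAS-wge arrays and 7625, 5899.6 and 6355 on the ey-Gal4 arrays. Nplp2 read 4364, 8565 and 6193 in UAS-wge and 807, 711 and 325 in ey-Gal4 (log2 difference 3.39 ± 0.28, limma adjusted p = 3.40e-07). PPO1, a prophenoloxidase of crystal cells, read 4772, 6308 and 5170.0 in UAS-wge and 2118, 1549.8 and 1500.1 in ey-Gal4 (1.65 ± 0.22, adjusted p = 1.04e-04). NimC1, Pxn (2.32 ± 0.23), He (2.16 ± 0.23), eater (1.98 ± 0.21), PPO2 (1.85 ± 0.18), srp (1.57 ± 0.29) and Hml (1.55 ± 0.21) were also called, and all 9 calls held without each array in turn. NimC1 was the member not above background on all 6 arrays: it read 855, 946 and 740.1 in UAS-wge and 44.1, 130.0 and 70.1 in ey-Gal4, where replicate 1 lies under its threshold. The part that hemocytes take in the other differences between the controls was not tested.

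Single arrays stood out for other tissues. Genes of the ring gland, which makes ecdysone beside the brain, summed to 2869, 4828 and 19722 on UAS-wge replicates 1, 2 and 3 and to 4207, 4902 and 1876 on ey-Gal4 replicates 1, 2 and 3. On UAS-wge replicate 3 the steroid enzyme genes spok, sad, sro, nvd and dib and the hormone gene Akh were each at their highest, with 1915, 3302 and 11685 for spok over the UAS-wge replicates and 2797, 2852 and 1083 over those of ey-Gal4. None of the 6 was called. Muscle genes summed to 1823, 2065 and 2477 in UAS-wge and 6403, 2959 and 3649 in ey-Gal4, highest on ey-Gal4 replicate 1. The contractile genes up (log2 difference -1.46 ± 0.34, adjusted p = 0.0154) and Tm2 (-1.20 ± 0.31, adjusted p = 0.0269) were called lower, and without ey-Gal4 replicate 1 neither passed (adjusted p = 0.111 for up and 0.171 for Tm2, in both the highest of 22 alternatives). Without UAS-wge replicate 3 the calls of hry, btd, chp, drm and odd held and that of bowl did not.

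Little signal came from fat body and salivary gland. None of 4 named fat body genes (Lsp2, Fbp1, Fbp2, apolpp) and 1 of 8 salivary gland genes, sage (238 ± 43), were above background, with summed signals of 86.9 to 196 and 346 to 479. Glial genes were above background in 5 of 8 cases, near the 54.1% of all named genes, with the sodium pump subunit gene nrv2 (3616 ± 1236) and loco (2252 ± 104) the brightest and the glial regulator repo at 268 ± 28.6. Of the brain and neuroblast list 6 of 8 passed, grh and dpn, which the disc lists share, among them, and the synaptic gene brp read 182 ± 48.9. The plot of summed marker signals gives all 8 lists by array.

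**Figure D5:**
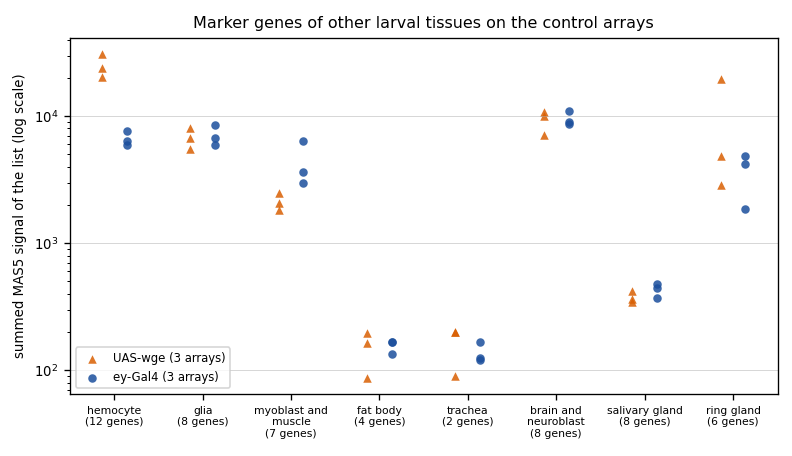
Summed MAS5 signal (log scale) of the named marker genes of 8 other larval tissues on each control array, UAS-wge as triangles left of ey-Gal4 as circles, 1 point an array. Hemocyte sums lie at 20167 to 30976 in UAS-wge and 5899.6 to 7625 in ey-Gal4, the ring gland sum of UAS-wge replicate 3 stands at 19722, and fat body sums stay under 200.

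The levels were set against those of ey>wge to show which of the genes described differ elsewhere in the series. Of the 50 brightest genes of the controls 48 were also among the 50 brightest in ey>wge and 46 in the allele pair. limma called 410 of 13817 probe sets between ey>wge and the average of both controls, 2.97%, with 0.897% higher in ey>wge and 2.07% lower. Of the 100 brightest control genes 3 were called, sesB and GstD1 higher and lncRNA:CR33938 lower. sesB averaged 29465 ± 1655 in ey>wge, 22915.5 ± 1486 in UAS-wge and 22063 ± 1569.9 in ey-Gal4 (SD, n = 3 each). GstD1 averaged 24909 ± 2506 in ey>wge, 14596 ± 1251 in UAS-wge and 22668 ± 2143 in ey-Gal4, so that ey>wge and ey-Gal4 differ by less than the SD of ey>wge. lncRNA:CR33938 averaged 29373 ± 2035 in ey>wge, 42735 ± 1704 in UAS-wge and 42385.5 ± 5049 in ey-Gal4. Each of these 3 calls was lost without at least 1 ey>wge array, with adjusted p-values over all alternatives of up to 0.187. Leaving out ey>wge replicate 3 gave 250 calls in place of 410, and leaving out allele-pair replicate 1 gave 625. Of the 79 eye, antennal and peripodial genes 9 were higher in ey>wge and 27 lower. By list the calls were 1 higher and 8 lower of 11 retinal determination genes, 0 and 5 of 10 furrow genes, 0 and 11 of 19 photoreceptor specification genes, 2 and 3 of 22 antennal genes, and 3 and 0 of 10 peripodial genes. Median log2 changes were -1.33, -0.56, -0.91, 0.12 and 0.36 in that order of lists, against 0.01 over all probe sets tested. A difference between lists was not tested. The 3 peripodial genes were drm, odd and grn, and drm and odd were also called lower in UAS-wge than in ey-Gal4. hry and chp, lower in ey>wge, were called between the controls too. For these genes the average of both controls joins unlike levels. All 4 named wing and thoracic selectors, vg, nub, ap and Antp, were called higher in ey>wge. For vg and Antp, which exceeded the threshold on 2 of 6 control arrays each, the difference is a lower bound: with each control array taken at no less than its threshold, vg was at least 8.14-fold and Antp at least 14.97-fold higher in ey>wge. Hemocyte genes moved with this contrast too: 8 of 12 were lower in ey>wge, and their summed signal was 4992 to 5383 in ey>wge, 20167 to 30976 in UAS-wge and 5899.6 to 7625 in ey-Gal4. Their part in the result was not tested.

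The number of probe sets bears on what the ranks can say. Of 18769 probe sets, 13647 carried 1 symbol, 402 several and 4720 none. Among the 113 probe sets as bright as the gene at rank 50 or brighter, 61 carried no symbol and 1 several, so the ranks cover the named genes only. Of 83 listed or bright genes with several probe sets, 20 had all of them above background, 40 some and 23 none. The brightest probe set exceeded the dimmest by a median of 8.03 times, and by over 10 times in 39 genes. br was above background on 5 of 5 probe sets, Dll on 2 of 3 and shn on 1 of 2, whereas Antp was on 0 of 3 and vg on 0 of 2. The ranks rest on the brightest probe set alone. The second averaged 2445 for br against 21323, 3007 for jim against 15473 and 1745 for toy against 8424. It averaged 296 for grh against 7878, 22.1 for FoxK against 3915 and 7.45 for shn against 4667. For RpS29 (36028 against 46244) and Hr39 (2050 against 2915) the second was closer.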

How the data were processed

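Per the labels, RNA of eye-antennal discs was hybridised to 12 Affymetrix arrays, 3 for each of 4 genotypes. The deposited values are MAS5 intensity signals on a linear scale for 18952 probe sets; MAS5 stands in the submitters' processing notes, and its version and settings are not given in the sources used here. Detection calls were not used. No coordinates are given, since the build behind the probe sets is not given in the sources used here. Symbols came from the platform annotation and a RefSeq gene table. The 183 AFFX control probe sets were left out, and probe sets that carry no symbol, or more than 1, were not named.

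Levels are the mean of the 6 control arrays with the SD. Differences were tested on log2(signal + 16), two-sided, for the 13817 probe sets above their array's 40th percentile on at least 3 of 12 arrays, with limma 3.58.1 (R 4.3.3, eBayes with trend, 1 mean per genotype over all 12 arrays) and Benjamini-Hochberg adjustment, called at adjusted p under 0.05. A fold change on this scale understates that of dim genes. Python 3.11.15 computed the rest. The number of arrays limits the precision. The labels call the replicates biological and name no shared batch, and no batch could be modelled.

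The members, gene lists and tests were chosen with earlier results of these data known. Named genes are wge and ey, the 25 brightest genes and the 15 brightest outside the ribosome, the 25 brightest transcription factor genes and the brightest of each family, the 6 brightest of each disc list with every gene not above background, the 3 brightest of each other-tissue list, and up to 8 genes changed each way between the controls among the listed and the 100 brightest genes. Other genes were named after their values were seen, among them the further list members, eEF1gamma, GstD1 and the transcription factor genes called between the controls.

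Same-numbered replicates did not deviate together (correlations from -0.05 to 0.08), so the numbers were not taken as pairs. Alternatives tried were other normalizations, pseudocounts of 1 and 64, other filters and background thresholds, a variance prior without trend, array weights, a replicate block, only the groups compared, and leaving out each array. Tested on simulated data with 200 of 13817 probe sets changed, the fit for UAS-wge minus ey-Gal4 recovered 81% of those with a log2 change of 1 and 99% of those with a log2 change of 2, with 6.25% false among its calls. The changed probe sets were drawn from the brighter ones only, so the recovery of dim probe sets was not measured.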

Additional observations from a re-analysis of the deposited data

How the results depend on the processing

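The ranks and the counts of genes above background moved little. With the median over arrays, the mean of log2 values or quantile normalization, all 50 brightest genes were kept, with the mean over all probe sets of a gene 46, and without each control array 49 to 50. Their share of the summed signal was 14.8% to 15.2% without each control array. Other background thresholds gave 174 to 210 transcription factor genes and 69 to 76 eye, antennal and peripodial genes above background, and leaving out each control array gave 187 to 189 and 71 to 73. The number of probe sets called between the controls was 470 without a variance trend, 1027 with array weights and 958 with only the groups compared. It was 457 to 526 without each control array. Without each array outside the comparison, which shares the fit's estimate of the spread, it was 628 to 966. Over all arrays left out, 204 to 467 were higher. For ey>wge against the controls the number called was 675 with array weights, 722 with only the groups compared and 250 to 625 without each array. The cause was not tested. With the replicate block the counts were 676 and 423, and the numbers of the replicates do not pair the arrays. With that block, bowl (adjusted p = 0.064) and gce (0.062) lost their calls. Of 42 gene differences followed through the alternatives, none changed sign and 17 of those called lost the call in at least 1 alternative. The lists are limited by naming: probe sets without a symbol hold many of the brightest signals. Values under the background thresholds, 38.4 to 48.2, have no useful order, and a gene not above background may still be expressed in few cells or be poorly read by its probes.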

Other observations

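Some bright genes outside the lists differed between the control lines. Their choice came after their values had been seen, from the 1000 brightest genes, of which limma called 30 higher in UAS-wge and 32 lower (6.20%, against 4.99% of all probe sets tested). rgn, a lectin-domain gene named for disc regeneration, read 102, 76 and 74.7 on the UAS-wge arrays and 5227, 5462 and 7019 on the ey-Gal4 arrays. hts, the adducin gene of the membrane skeleton, has 5 probe sets. On the brightest, the only one followed here, hts read 1797, 2313 and 1571 in UAS-wge and 8133, 8549.6 and 8431 in ey-Gal4. Both were lower on every UAS-wge array, with log2 differences of -5.88 ± 0.17 for rgn (limma adjusted p = 1.78e-13) and -2.15 ± 0.15 for hts (adjusted p = 5.20e-08). The odorant-binding protein gene Obp99a read 8567, 8398 and 8113 in UAS-wge and 1293, 1071 and 936 in ey-Gal4, and the kinase gene Hipk 6321, 6784 and 6729.7 in UAS-wge and 2821, 2152 and 2052 in ey-Gal4. Obp99a (2.92 ± 0.17) and Hipk (1.50 ± 0.19) were higher and the glutathione transferase gene GstD3 (-1.50 ± 0.13) lower in UAS-wge, with adjusted p-values of 2.51e-09, 6.38e-05 and 7.58e-07. All 5 calls held in each of 22 alternatives.

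Other bright genes varied among arrays of 1 genotype. The ecdysone-induced gene ImpE2 read 14789, 4463 and 9130.2 in UAS-wge and 9236, 22738 and 18889.5 in ey-Gal4, and the stress gene Hsp68 3551, 3431 and 169.7 in UAS-wge and 2089.6, 5309.8 and 1068 in ey-Gal4. UAS-wge replicate 3 was the lowest of the 6 for Hsp68 and for the small heat shock gene Hsp26 (10389, 11005 and 2471 in UAS-wge and 13612, 18752 and 7109.5 in ey-Gal4). On the same array the sterol transport gene Npc1a (2499, 2915 and 7318 in UAS-wge and 2451, 3631 and 2221 in ey-Gal4) and the ecdysone importer gene Oatp74D (2792, 2537 and 6041 in UAS-wge and 1365, 2663 and 1678 in ey-Gal4) were at their highest, as were the ring gland genes. At the other end, 515 of the 1000 brightest genes had a coefficient of variation under 10%, among them pic at 1.70%, mRpL30 at 1.80% and noc at 2.77%.

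Gene span and chromosome, taken from the RefSeq table, are properties the ranking did not use. The median span from start to end was 1560 bases for the 50 brightest genes, 8997 bases for the named transcription factor genes and 2266 bases for all named genes. Of the named genes of chromosome 4, 51 of 65 (78.5%) were above background, against 51.9% to 57.9% for 2L, 2R, 3L, 3R and X and 0 of 7 on Y. No test was made of these shares.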
